A study of Mus musculus with 2 samples.

Results

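The cells described here are putative mature dendritic cells of MB49 tumours, found in 2 libraries that profiled sorted live immune (CD45+) cells 1 by 1, and chosen by their own UMI counts, a UMI (unique molecular identifier) being 1 captured transcript molecule. A cell became a member when it had at least 1 Ccr7 UMI, at least 2 UMIs of Fscn1 and Ccl22 together, at least 20 UMIs of the class II genes Cd74, H2-Aa and H2-Ab1 together, at most 1 Cd3 UMI and at most 2 C1q UMIs. This rule selected 166 of 15259 kept cells, 73 in the library labelled Lcn2-ko and 93 in the wt library. MB49 is a mouse bladder carcinoma line. Each library came from chimeric mice: male marrow, Lcn2-KO for one library and WT for the other, had been given to lethally irradiated female hosts, so the hosts' own cells still had their Lcn2 gene in both. The labels give sex as female, age and number of animals are not stated in the sources used here, and the study asked what Lcn2, which encodes the iron-carrier-binding protein lipocalin, does to neutrophils in the tumour. Since there was 1 library per genotype label, no comparison below has a replicate and none is a test; the 95% intervals cover counting error only.

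Dendritic cells take up antigen in tissue, and on maturation they switch from uptake to presentation. They then raise costimulatory molecules, the chemokine receptor Ccr7, which guides them toward lymph nodes, and the actin-bundling protein Fscn1, while secreting T-cell-attracting chemokines such as Ccl22 and Ccl17. Conventional dendritic cells come in a cDC1 type, specialised in presenting to CD8+ T cells, and a cDC2 type, which mainly primes CD4+ T cells, and either type can mature.

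Members held a median of 6255 UMIs (range 2418 to 20136) and 2028 genes in the library labelled Lcn2-ko, and 7165 UMIs (range 2876 to 28625) and 2226 genes in wt. All kept cells had medians of 3700 UMIs in Lcn2-ko and 3727 in wt. The 2 libraries shared 4 cell barcodes, none of them a member's. Lcn2 itself had 15 UMIs in Lcn2-ko members, 14 of them in 1 cell, and 1 UMI in wt members; captured transcript ends do not check a deletion, and the label is taken as given. The gate capped UMIs of the Cd3 and C1q genes, so low sums of those genes in members follow from it. The 3 T cell markers it did not use, Cd2, Trac and Trbc2, summed to 50.2 CPM (UMIs per 1000000 UMIs of the same cells) in Lcn2-ko members and 49.2 CPM in wt members, against 858 and 705 CPM in the other kept cells of the same libraries. The 5 monocyte and macrophage markers other than C1q genes summed to 64.3 CPM in Lcn2-ko members and 62.9 CPM in wt members, the 5 neutrophil markers to 14.1 and 34.2 CPM, and the 4 B cell markers to 0 and 1.37 CPM. Retnlg, Ncr1, Klrb1c and Ms4a1 were at 0 in members of both libraries. The 6 tumour or stroma markers summed to 773 CPM in Lcn2-ko members and 1181 CPM in wt members, and most of it sat in 11 cells with at least 10 such UMIs: 5 in Lcn2-ko, with 26 to 110 each, and 6 in wt, with 24 to 350 each, while no other member had more than 5. These 11 tumour-RNA members had a median of 12528 UMIs in Lcn2-ko and 17198.5 in wt. No doublet caller was run, and whether they are pairs of cells was not tested; results that rest on them are given with and without them.

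The label was borne out in a portion of the members only. Fscn1 had no UMI in 31 of 73 Lcn2-ko members (42.5%) and in 53 of 93 wt members (57.0%), which entered through Ccl22. Both Fscn1 and Ccl22 were detected in 33 Lcn2-ko and 31 wt members, and Ccl22 was at 0 in 9 members of each library. Members were therefore also described in ranges, set after their values were seen. Leaving out the tumour-RNA cells, members with at least 4 Fscn1 UMIs are called Fscn1-high: 26 in Lcn2-ko, with a median of 18 Fscn1 UMIs, and 19 in wt, with a median of 25. Fscn1-low members with at least 2 UMIs of the cDC1 receptors Xcr1 and Clec9a numbered 14 in Lcn2-ko and 33 in wt. Those with at least 2 UMIs of the cDC2 lectins Cd209a, Clec10a and Mgl2 instead numbered 15 in Lcn2-ko and 30 in wt, and 13 Lcn2-ko and 5 wt members had neither. Members that met both criteria were placed with cDC1 genes, among them a wt member with 4 cDC1 receptor UMIs and 38 cDC2 lectin UMIs. These are ranges of a count and not cell types: 10 Lcn2-ko and 14 wt members had 2 or 3 Fscn1 UMIs, and 5 Lcn2-ko and 2 wt members had 4 to 6. At the edge of the rule, the Fscn1 and Ccl22 sum was exactly 2 in 9 Lcn2-ko and 13 wt members, and exactly 1 in 36 Lcn2-ko and 29 wt cells that otherwise met it. Ccr7 was exactly 1 in 10 Lcn2-ko and 18 wt members, and 0 in 31 Lcn2-ko and 75 wt cells that met the other criteria.

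**Figure D1:**
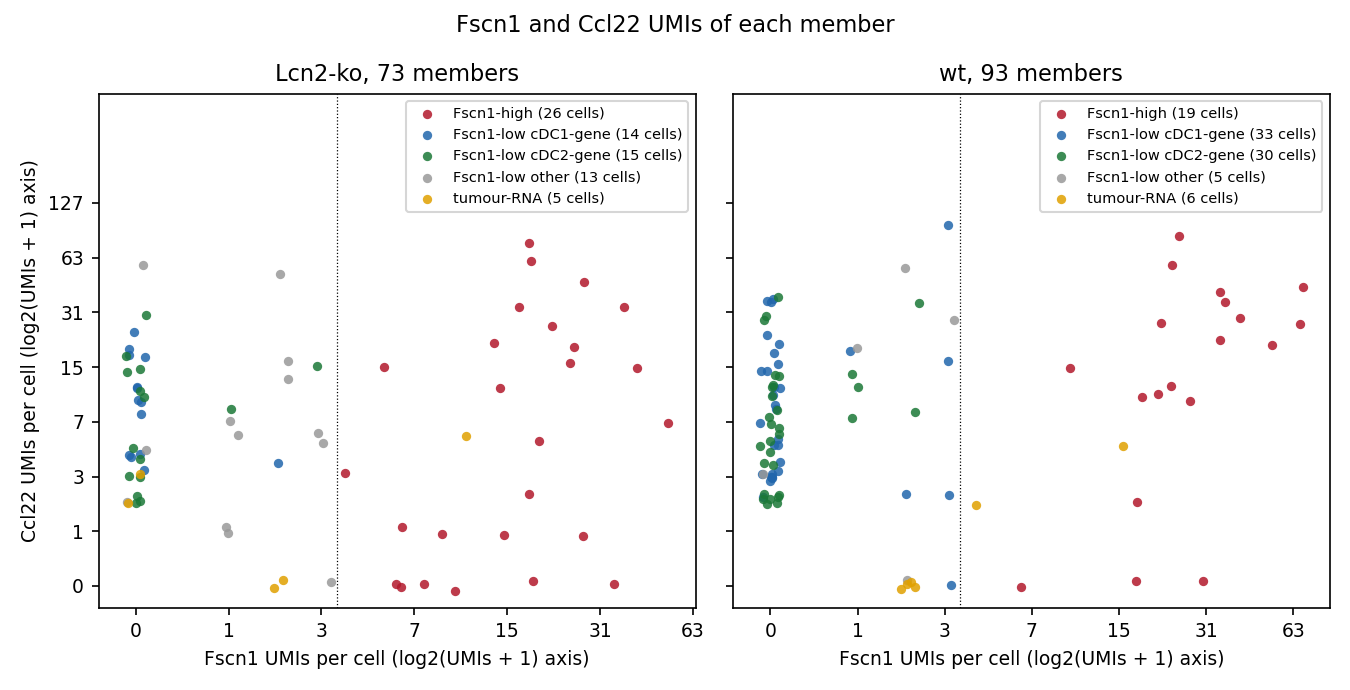
Fscn1 UMIs (x axis) and Ccl22 UMIs (y axis) of each member, both on log2(UMIs + 1) axes with slight jitter, for 73 Lcn2-ko cells (left) and 93 wt cells (right), coloured by range. The dotted line separates 3 from 4 Fscn1 UMIs; the column of cells at 0 Fscn1 holds 31 Lcn2-ko and 53 wt members, which carry mostly cDC1 or cDC2 genes.

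Several genes of the mature programme outside the rule were highest in the Fscn1-high range. Summed, 12 mature dendritic cell markers not used by the gate had 11789 CPM in Lcn2-ko and 12728 CPM in wt Fscn1-high members. Fscn1-low members had 4769 and 3632 CPM. Not every marker was confined to that range: Cd83, 1 of the 12, was detected in 24 of 26 Lcn2-ko and 19 of 19 wt Fscn1-high members. It was also detected in all Fscn1-low members. Pooled over both libraries, Cacnb3, a calcium channel subunit, stood at 1099 CPM in Fscn1-high members, 74.1 CPM in Fscn1-low members with cDC1 genes, 168 CPM in those with cDC2 genes and 533 CPM in those with neither. In the same order of ranges, Socs2, a suppressor of cytokine signalling, stood at 647, 15.9, 123 and 267 CPM, and Cd200, a ligand of an inhibitory receptor, at 548, 55.6, 35.6 and 267 CPM. All 3 were thus highest in the Fscn1-high range and next highest in Fscn1-low members with neither set of lineage genes. Tnfsf4, a costimulatory ligand of T cells, followed the same order at 292, 5.29, 12.9 and 58.0 CPM, with 25 of 53 wt UMIs in 1 cell. Ccl5 stood at 2685 CPM in Fscn1-high members and at 244, 346 and 406 CPM in the 3 Fscn1-low ranges. The class II gene H2-Ab1 ran the other way, at 2582 CPM in Fscn1-high members and 12099, 12036 and 8733 CPM in the Fscn1-low ranges, though the rule had set a floor under it.

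Other functions did not follow Fscn1. Il12b, an interleukin subunit that drives T helper responses, was at 999 CPM in the Fscn1-high range, 1983 CPM in Fscn1-low members with cDC1 genes, 368 CPM in those with cDC2 genes and 1658 CPM in those with neither. Ccl17 was at 1039, 950, 1261 and 1032 CPM in the same order, and the costimulatory ligand Cd80 at 466, 500, 495 and 638 CPM. Lineage genes outside the ranges' definitions followed them: Naaa, a lysosomal amidase typical of cDC1, was at 0, 1636, 291 and 128 CPM, and the integrin Itgam, typical of cDC2, at 3.56, 10.6, 123 and 34.8 CPM. Naaa had no UMI in any Fscn1-high member. Xcr1 was at 3.56 CPM there and Cd209a at 0, but Mgl2, a cDC2 gene, had UMIs in 8 of 26 Lcn2-ko and 4 of 19 wt Fscn1-high members.

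**Figure D2:**
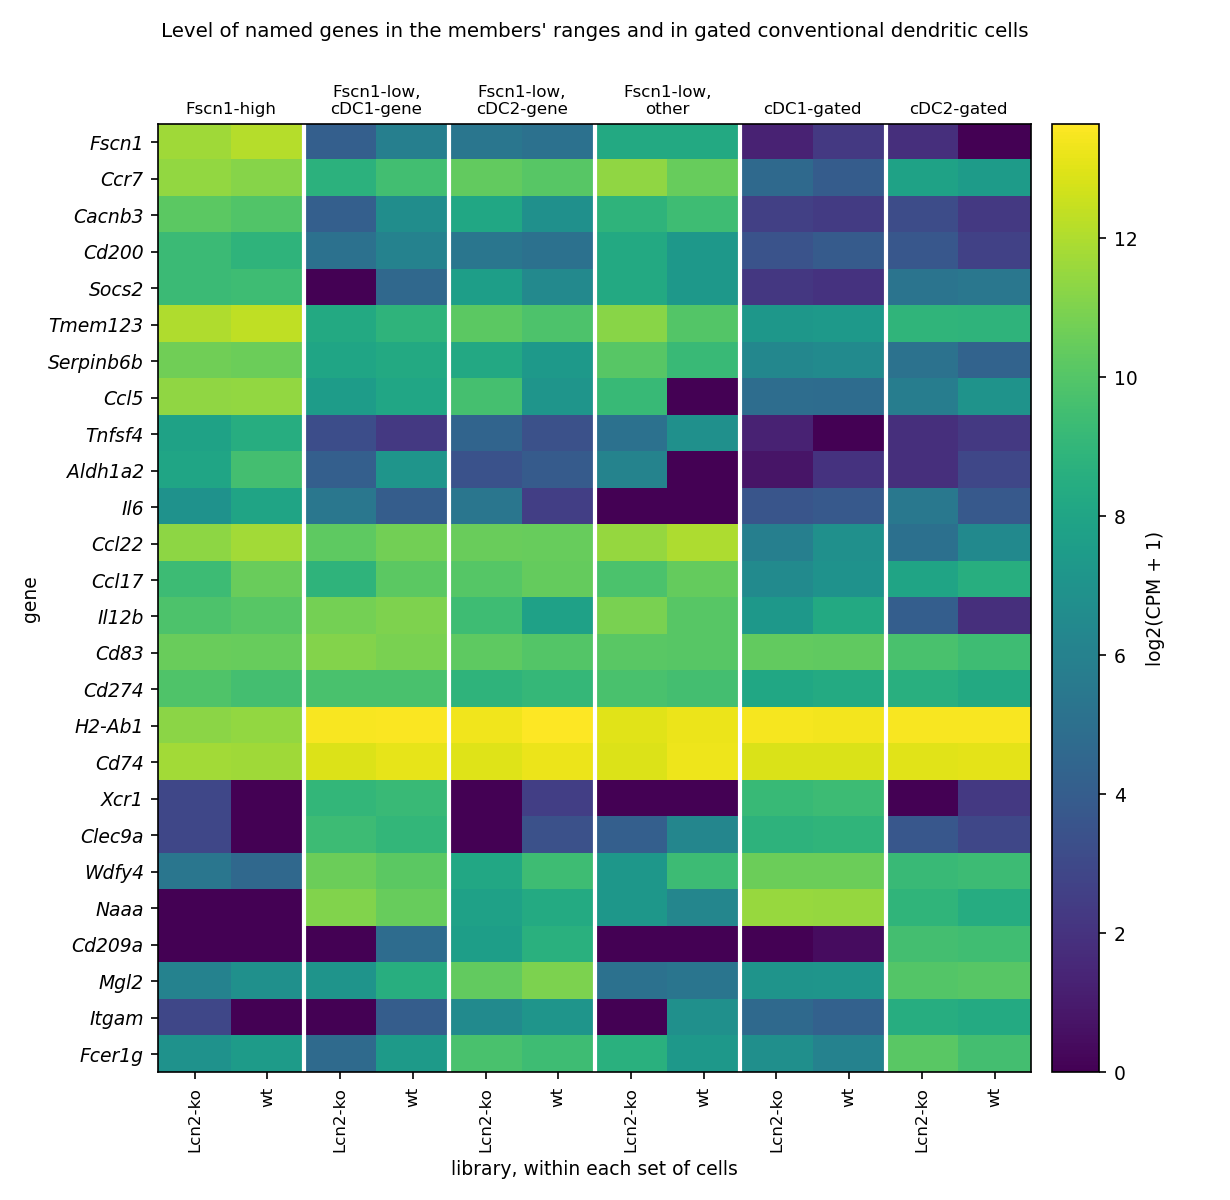
Levels (colour, log2(CPM + 1)) of genes in rows, for 4 ranges of members and for gated cDC1 and cDC2 in columns, with Lcn2-ko left of wt within each set. Maturation genes at the top are brightest in Fscn1-high members, while Naaa (0 CPM in both libraries) and Cd209a are dark there; Fscn1-low members with cDC1 or cDC2 genes share most of their pattern with the gated cDC1 and cDC2.

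As a description, members were set against 160 Lcn2-ko and 333 wt cells gated as cDC1 on Xcr1 and Clec9a, and 138 Lcn2-ko and 121 wt cells gated as cDC2 on Cd209a and Clec10a, none of them members. Of 3150 genes with enough counts, 321 were at least 2-fold higher in members than in gated cDC1 in both libraries (10.2%) and 165 at least 2-fold lower (5.24%). Of 3046 genes, 187 were higher than in gated cDC2 (6.14%) and 119 lower (3.91%). The gate fixes part of these counts, since it selected the cells on their own UMIs. Among the 12 mature dendritic cell markers not used by the gate, 9 of the 10 with enough counts were at least 2-fold higher than in gated cDC1 and 8 of 10 higher than in gated cDC2. Cacnb3 had 494 CPM in Lcn2-ko members and 278 CPM in wt members, against 5.10 and 4.18 CPM in gated cDC1 of the same libraries. Apol7c, an apolipoprotein-L family gene, had 157 and 167 CPM in members of Lcn2-ko and wt and no UMI in gated cDC2 of either library, so it was at least 39.6-fold higher in members in Lcn2-ko and at least 43.4-fold in wt, taking 3 UMIs per library as the floor. Il4i1, an amino acid oxidase, had 169 CPM in Lcn2-ko members and 144 CPM in wt members, against 34.3 and 21.8 CPM in gated cDC2. Ramp3, a receptor-modifying protein, and Procr, the protein C receptor, were among the 20 genes highest over all other kept cells, with Ramp3 at 466 CPM in Lcn2-ko members and 291 CPM in wt members, against 54.9 and 34.0 CPM in the other cells.

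Against gated cDC1, 13 of 14 cDC1 genes with enough counts were at least 2-fold lower in members, and against gated cDC2, 4 of 11 cDC2 genes were. Part of both counts was fixed in advance, since the gated cells were chosen on Xcr1 and Clec9a or on Cd209a and Clec10a. Values of members are also averages over ranges with unlike levels of lineage genes, so these counts do not show a loss within cells. Naaa had 580 and 595 CPM in Lcn2-ko and wt members, against 2945 and 2849 CPM in gated cDC1. Klf2, a transcription factor of quiescence, had 123 and 157 CPM in Lcn2-ko and wt members, against 531 and 479 CPM. Fcer1g, the shared signalling chain of Fc receptors, had 273 and 302 CPM in members, against 1130 and 767 CPM in gated cDC2. Cybb, the catalytic subunit of the phagocyte oxidase, had 221 and 123 CPM in members, against 501.5 and 451 CPM in gated cDC2. Of the costimulation genes with enough counts, 4 of 11 were at least 2-fold higher than in gated cDC1 and 4 of 11 higher than in gated cDC2. These shares were above the 10.2% and 6.14% of all genes, but below those of the mature markers. Cd83, 1 of the 12 mature markers, had 1386 CPM in Lcn2-ko members and 1278 CPM in wt members. That was close to the 1329 and 1286 CPM of gated cDC1.

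Members made up 0.967% of kept cells in the library labelled Lcn2-ko (exact interval 0.759 to 1.21) and 1.21% in wt (0.974 to 1.48), a difference of -0.239 percentage points with an interval of -0.572 to 0.0925 that includes 0. Without the Ccr7 criterion, and with at least 4 UMIs of Fscn1 and Ccl22, the difference was -0.486 points (-0.831 to -0.147). Of all gated dendritic cells they were 19.7% in Lcn2-ko (73 of 371) and 17% in wt (93 of 547), a difference of 2.67 points (-2.35 to 7.91). The makeup of the members differed more. Fscn1-high cells were 35.6% of members in Lcn2-ko (24.7 to 47.7) and 20.4% in wt (12.8 to 30.1), 15.2 points apart (1.53 to 28.6). Fscn1-low members with cDC1 genes were 19.2% of members in Lcn2-ko and 35.5% in wt, a difference of -16.3 points (-28.8 to -2.51). Those with cDC2 genes were 20.5% in Lcn2-ko and 32.3% in wt (-11.7 points, -24.4 to 1.98), and those with neither were 17.8% in Lcn2-ko and 5.38% in wt (12.4 points, 2.74 to 23.2). The cDC1 and cDC2 shares depend on members with both kinds of genes being placed with cDC1. As a share of kept cells, Fscn1-high members were 0.345% in Lcn2-ko and 0.246% in wt, 0.0981 points apart with an interval of -0.0780 to 0.281. Gated cDC1 were 43.1% of gated dendritic cells in Lcn2-ko and 60.9% in wt, a difference of the same sign as that of members with cDC1 genes. Gated cDC2 were 37.2% in Lcn2-ko and 22.1% in wt (15.1 points, 9.07 to 21.1), the opposite sign to that of members with cDC2 genes, whose interval includes 0. The gates and the members' ranges have different denominators, and the cDC2 range also uses Mgl2, so their signs are compared loosely.

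UMIs of the members were summed within each library to compare gene levels, given as CPM, with the log2 ratio Lcn2-ko over wt and its exact interval. Among genes that reached 50 CPM in 1 library or more and 50 UMIs over both, 3197 in all, 43 were at least 2-fold higher in Lcn2-ko members (1.35%) and 59 at least 2-fold lower (1.85%), with a median log2 ratio of 0.04. Without the 1 cell that held most UMIs of the gene in each library, 40 of the 43 and 53 of the 59 were still past 2-fold. Gene lists below are counted at 1.5-fold among genes that reached 20 CPM in 1 library or more, where 854 of 5943 genes were higher (14.4%) and 664 lower (11.2%), with a median log2 ratio of 0.06. Since Lcn2-ko members held more Fscn1-high cells, several results are also given within the Fscn1-high and the Fscn1-low range. The Fscn1-low range itself differed in makeup, with neither set of lineage genes in 13 of 42 Lcn2-ko and 5 of 68 wt cells. Ratios within that range, and values with equal weights of the 2 ranges, still carry this difference.

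Chemokines differed in direction, also within families. Ccl17, a ligand of the receptor Ccr4 on chr8:94810453-94812036 (mm10), had 651 CPM in Lcn2-ko members and 1118 CPM in wt members, a log2 ratio of -0.78 (-0.97 to -0.59). It was lower in both ranges, with 664 CPM in Lcn2-ko against 1479 CPM in wt among Fscn1-high members (-1.15, -1.52 to -0.80) and 760 against 1266 CPM among Fscn1-low members (-0.74, -0.97 to -0.51). Ccl17 was detected in 29 of 73 Lcn2-ko members (39.7%, 28.5 to 51.9) and in 60 of 93 wt members (64.5%, 53.9 to 74.2). T-gated cells, which should lack it, had a Ccl17 UMI in 0.988% of Lcn2-ko and 1.46% of wt cells, at median depths of 2841 and 2760 UMIs. With every cell thinned to 3900 UMIs, leaving out 12 Lcn2-ko and 5 wt members, the shares were 37.7% in Lcn2-ko and 62.5% in wt (-24.8 points, -39.3 to -8.47). Ccl22, the other Ccr4 ligand and part of the gate (chr8:94745590-94751699), had 1733 CPM in Lcn2-ko members and 1783 CPM in wt members. Ccl17 was also lower in gated cDC1 of Lcn2-ko (log2 ratio -0.47, -0.78 to -0.17) and in gated cDC2 (-0.58, -0.85 to -0.31), so its direction was not particular to the members.

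Ccl3 and Ccl4, neighbouring chemokine genes on chr11, were lower in Lcn2-ko members. Ccl3 had 34.1 CPM in Lcn2-ko and 150 CPM in wt (-2.14, -2.97 to -1.39), with 41 of the 110 wt UMIs in 1 cell. Ccl4 had 211 CPM in Lcn2-ko and 477 CPM in wt (-1.18, -1.51 to -0.86), and within ranges its log2 ratio was -2.31 (-3.03 to -1.64) among Fscn1-high and -0.79 (-1.18 to -0.41) among Fscn1-low members. With cells thinned as above, the share of members with a Ccl4 UMI differed by -8.76 points (-23.7 to 7.18), against -21.3 points at full depth. Ccl4 was also found in other cells: 27.7% of Lcn2-ko and 33.0% of wt T-gated cells had a Ccl4 UMI, against 30 of 73 Lcn2-ko and 58 of 93 wt members, and how far free RNA adds to the members' counts was not tested. The neutrophil attractant Cxcl2 had 576 CPM in Lcn2-ko members and 930 CPM in wt members (-0.69, -0.89 to -0.49), but its ratio was 0.80 among Fscn1-high members.

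Cxcl9, Cxcl10 and Ccl5 ran the other way over all members, though Cxcl10 and Ccl5 did not in every subset of members. Cxcl9, a ligand of Cxcr3 on chr5:92321347-92328079, had 331 CPM in Lcn2-ko members and 130 CPM in wt members (1.35, 0.98 to 1.73), from 18 cells in Lcn2-ko and 19 in wt. It was higher among Fscn1-high members (112 CPM in Lcn2-ko, 31 CPM in wt, from 17 and 4 UMIs in 2 Lcn2-ko and 3 wt cells) and among Fscn1-low members (405 CPM in Lcn2-ko, 117 CPM in wt), with 47 of 165 Lcn2-ko UMIs in 1 cell. The share of members with a Cxcl9 UMI differed by 4.23 points, with an interval of -8.33 to 17.2. In gated cDC1 its log2 ratio was -0.72 (-1.04 to -0.40) and in gated cDC2 0.56 (0.21 to 0.91), so the direction in members was not that of gated cDC1; the difference between these sets was not tested. Cxcl10, the other Cxcr3 ligand measured, had 171 CPM in Lcn2-ko members and 50.6 CPM in wt members, and its log2 ratio of 1.75 (1.18 to 2.35) was 1.02 without the tumour-RNA members, 0.22 under a stricter gate of at least 2 Ccr7 UMIs and 4 of Fscn1 and Ccl22, and -0.10 without members holding other-lineage UMIs. Ccl5 had 1079 CPM in Lcn2-ko members and 656 CPM in wt members (0.72, 0.54 to 0.90), with 2618 and 2764 CPM among Fscn1-high members and 484 and 200 CPM among Fscn1-low members. With the Fscn1-high and Fscn1-low ranges given the same weights in both libraries, and no tumour-RNA members, the Ccl5 ratio was 0.25. In all, 4 of the 11 measured chemokines were at least 1.5-fold higher in Lcn2-ko and 5 lower.

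Markers of mature dendritic cells were higher in sum in Lcn2-ko members as a whole, but not among Fscn1-high members. Of the 12 mature dendritic cell markers not used by the gate, 5 were at least 1.5-fold higher and 0 lower, with a median log2 ratio of 0.37 beside 0.06 over all genes. Cd200 had 253 CPM in Lcn2-ko members and 133 CPM in wt members (0.93, 0.54 to 1.33), and Cacnb3 had 494 and 278 CPM (0.83, 0.56 to 1.11). Summed over the 12 genes, the log2 ratio was 0.39 (0.32 to 0.46) over all members, -0.11 (-0.21 to -0.01) among Fscn1-high members and 0.39 (0.29 to 0.50) among Fscn1-low members. Fscn1-low members with neither set of lineage genes had more Cacnb3 and Cd200 than other Fscn1-low members, and were a larger share in Lcn2-ko. How far this adds to the Fscn1-low ratio was not tested. Of the 14 migration and cytoskeleton genes, 1 was at least 1.5-fold higher and 0 lower, a lower share than the 14.4% of all genes, and their median was 0.17, or 0.02 with equal weights of the Fscn1 ranges. That gene, Marcksl1, which binds actin and the membrane, had 777 CPM in Lcn2-ko members and 422 CPM in wt members (0.88, 0.66 to 1.10) and was higher in both ranges. Ccr7 (chr11:99144196-99155077) and Fscn1 (chr5:142960343-142973185) were used by the gate. Ccr7 had 1607 CPM in Lcn2-ko and 1090 CPM in wt, and Fscn1 had 1087 and 868 CPM, while among Fscn1-high members alone Fscn1 had 3296 CPM in Lcn2-ko and 4459 CPM in wt.

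**Figure D3:**
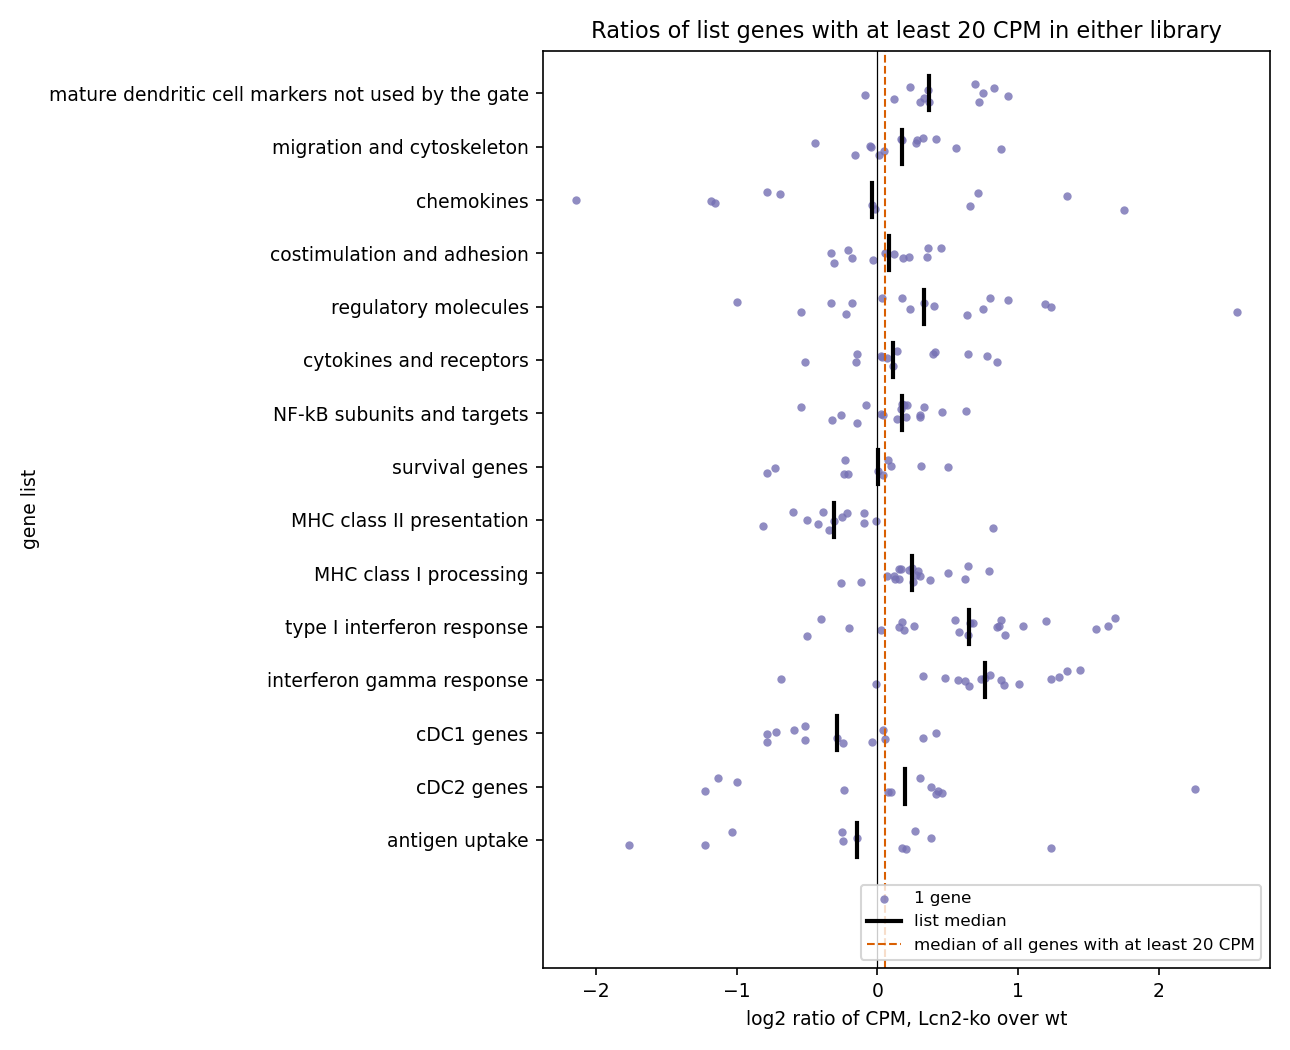
Log2 ratio of CPM, Lcn2-ko over wt, of each gene with at least 20 CPM (points) in 15 gene lists, with list medians (black bars) and the median over all genes (dashed line, 0.06). The 2 interferon lists have the highest medians, 0.65 and 0.77, and class II presentation the lowest, -0.31.

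Of 13 class II presentation genes, 2 were at least 1.5-fold lower in Lcn2-ko members and 1 higher, shares near those of all genes, with a median of -0.31. Their sum was 26168 CPM in Lcn2-ko members and 32635 CPM in wt members, but Cd74, H2-Aa and H2-Ab1, on which the gate set a floor, supplied 9140 of 13028 UMIs in Lcn2-ko and 16916 of 23871 in wt. The 10 genes the gate did not use summed to 7809 CPM in Lcn2-ko and 9509 CPM in wt (-0.28, -0.34 to -0.23). H2-DMa, which helps load peptide onto class II, had 159 CPM in Lcn2-ko members and 279 CPM in wt members (-0.81, -1.21 to -0.43). H2-Eb2 was the exception, with 201 CPM in Lcn2-ko and 113 CPM in wt (0.82, 0.39 to 1.26). Among Fscn1-high members those 10 genes summed to 5480 CPM in Lcn2-ko and 5899 CPM in wt (-0.11, -0.25 to 0.04), and among Fscn1-low members to 10470 and 12010 CPM (-0.20, -0.26 to -0.13). The 19 class I genes summed to 14681 CPM in Lcn2-ko and 12088 CPM in wt (0.28, 0.24 to 0.33), with 3 at least 1.5-fold higher, near the share of all genes, 0 lower and a median of 0.25. The class I sum was also higher over all kept cells (15670 CPM in Lcn2-ko, 13772 CPM in wt) and in gated cDC2 (11965 and 10898 CPM). Tap1, which carries peptides to class I, had 291 CPM in Lcn2-ko members and 168 CPM in wt members (0.79, 0.44 to 1.15), and H2-K1, a class I heavy chain, 3457 and 2799 CPM (0.30, 0.21 to 0.40). The class I sum ratio was 0.03 (-0.05 to 0.12) among Fscn1-high and 0.33 (0.27 to 0.39) among Fscn1-low members. H2-Q7, at 619 CPM in Lcn2-ko and 396 CPM in wt, has close copies that share reads, so its value is uncertain.

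Interferon-response genes were higher in Lcn2-ko members, with sums that stood clear of 0 among Fscn1-low but not among Fscn1-high members. Of 17 interferon gamma response genes measured, 12 were at least 1.5-fold higher and 1 lower, with a median of 0.77; of 22 type I interferon response genes, 12 were higher and 0 lower, with a median of 0.65. These lists were chosen with earlier results of these data known. Serpina3g, a protease inhibitor, had 165 CPM in Lcn2-ko members and 82.0 CPM in wt members (1.01, 0.51 to 1.51), and the GTPase Ifi47 had 74.3 and 27.3 CPM (1.44, 0.62 to 2.31). Irf7, a type I regulator, had 34.1 CPM in Lcn2-ko and 45.1 CPM in wt (-0.40, -1.34 to 0.48). Summed, the interferon gamma list had a log2 ratio of 0.60 (0.50 to 0.70), with -0.02 (-0.20 to 0.16) among Fscn1-high and 0.67 (0.53 to 0.81) among Fscn1-low members. The type I list had 0.37 (0.22 to 0.51) over all members, 0.22 without tumour-RNA members, 0.03 (-0.31 to 0.37) among Fscn1-high and 0.34 (0.16 to 0.52) among Fscn1-low members. When members with at least 2 UMIs of another cell type's or of tumour markers were left out, 45 Lcn2-ko and 54 wt members stayed, and the type I median was 0.02 and the interferon gamma median 0.52. Many of these genes rest on fewer than 50 UMIs per library, and Gbp family members have close copies that can share reads. In gated cDC1 the interferon gamma list summed to 2554 CPM in Lcn2-ko and 2981 CPM in wt, and in gated cDC2 to 2060 and 1440 CPM. The type I list summed to 804 CPM in Lcn2-ko and 805 CPM in wt in gated cDC1, and to 1420 and 1199 CPM in gated cDC2.

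None of the 12 costimulation and adhesion genes measured was 1.5-fold apart in either direction, and their median was 0.09. Cd80 had 436 CPM in Lcn2-ko members and 446 CPM in wt members, and Cd86, which binds the same T cell receptors, had 440 and 507 CPM (-0.21, -0.45 to 0.04). A Cd86 UMI was found in 59 of 73 Lcn2-ko and 84 of 93 wt members (-9.50 points, -20.9 to 1.18), and with thinned cells in 65.6% of Lcn2-ko and 83.0% of wt members (-17.4 points, -31.5 to -3.29). Of 17 regulatory molecules measured, 7 were at least 1.5-fold higher in Lcn2-ko and 1 lower, with a median of 0.33. The sum of that list had a log2 ratio of -0.06 (-0.22 to 0.10) among Fscn1-high and 0.41 (0.27 to 0.54) among Fscn1-low members. Cd274, the PD-1 ligand, had 713 CPM in Lcn2-ko members and 632 CPM in wt members (0.17, -0.03 to 0.38), while Pdcd1lg2, the other ligand of that receptor, had 366 and 235 CPM (0.64, 0.33 to 0.95). Axl, a receptor for dying cells, had 171 and 72.5 CPM (1.24, 0.72 to 1.76). Aldh1a2, which makes retinoic acid, was the lower one, at 94.4 CPM in Lcn2-ko and 189 CPM in wt (-1.0, -1.51 to -0.51), lower in both ranges, with 22 of 47 Lcn2-ko UMIs and 42 of 138 wt UMIs in 1 cell each. Tnfrsf4, a receptor of activated T cells, had 28 UMIs in Lcn2-ko members and 7 in wt members (2.55, 1.33 to 3.99), 23 and 1 of them in Fscn1-high members.

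Among 13 cytokines and receptors, 3 were at least 1.5-fold higher in Lcn2-ko and 0 lower, with a median of 0.11. Their summed ratio had the opposite sign, at -0.16 (-0.22 to -0.10). It was -0.31 (-0.43 to -0.18) among Fscn1-high and -0.11 (-0.18 to -0.03) among Fscn1-low members. Il12b (chr11:44400063-44414033) had 1067 CPM in Lcn2-ko members and 1040 CPM in wt members (0.04, -0.13 to 0.20). It was detected in 30 of 73 Lcn2-ko members (41.1%) and 44 of 93 wt members (47.3%), against 0.176% of Lcn2-ko and 0.435% of wt T-gated cells. Il1b, a fever-inducing cytokine, had 2730 CPM in Lcn2-ko members and 3891 CPM in wt members (-0.51, -0.61 to -0.42), with ratios of -0.46 among Fscn1-high and -0.48 among Fscn1-low members. Il1r2, a decoy receptor for the same cytokine, had 593 CPM in Lcn2-ko members and 1245 CPM in wt members (-1.07, -1.27 to -0.88), and was lower in both ranges. Il1r2 is not among those 13 genes. Il21r, the receptor of a T cell cytokine, had 155 and 90.2 CPM (0.78, 0.28 to 1.27). Of 18 NF-kB subunits and targets, which drive maturation, 1 was at least 1.5-fold higher and 0 lower, with a median of 0.17. Birc2, a regulator of that pathway, had 233 CPM in Lcn2-ko members and 150 CPM in wt members (0.63, 0.24 to 1.02). Of 11 survival genes, 0 were higher and 2 lower; Bcl2l1, which blocks apoptosis, had 98.4 and 170 CPM (-0.78, -1.29 to -0.30).

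Of 13 cDC1 genes measured, 0 were at least 1.5-fold higher and 4 lower (median -0.28), and with equal weights of the 2 Fscn1 ranges the median was -0.01. Xcr1, the receptor that marks cDC1, had 127 CPM in Lcn2-ko members and 217 CPM in wt members (-0.78, -1.23 to -0.35). Of 12 cDC2 genes, 1 was higher and 3 lower, and the median of 0.20 had the opposite sign of the summed ratio, -0.36 (-0.49 to -0.23). Mgl2, a sugar-binding uptake receptor, dominated that sum with 339 CPM in Lcn2-ko and 744 CPM in wt (-1.13, -1.39 to -0.88). Plet1, a surface protein, had 1163 CPM in Lcn2-ko members and 2678 CPM in wt members (-1.2, -1.34 to -1.07), in 35 of 73 Lcn2-ko cells (47.9%) and 73 of 93 wt cells (78.5%). Nearly all Plet1 UMIs were in Fscn1-low members (1990 CPM in Lcn2-ko, 3878 CPM in wt), and 60.7% of Lcn2-ko and 59.7% of wt Ptprc-negative keratin-positive cells also had a Plet1 UMI. In gated cDC1 its log2 ratio was 0.24 (0.18 to 0.29) and in gated cDC2 -0.50 (-0.60 to -0.39). Of 11 antigen uptake genes, 1 was higher and 3 lower, with a median of -0.15. The Fc receptor Fcgr2b had 60.3 CPM in Lcn2-ko members and 123 CPM in wt members (-1.03, -1.68 to -0.42).

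By the rule for naming genes, the 12 genes with the highest lower bound and the 12 with the lowest upper bound of the interval were taken. Besides Cxcl9, Cxcl10, Gbp2 and Tnfrsf9, the higher genes were Gclc, Mmp13, Epsti1, B3gnt5, Ptpn3, Lrp8, Plac8 and Npr1. Gclc, the catalytic subunit for glutathione synthesis (chr9:77754535-77794485), had 349 CPM in Lcn2-ko members and 97.1 CPM in wt members (1.85, 1.44 to 2.27), with 58 of 174 Lcn2-ko UMIs in 1 cell. Among Fscn1-high members Gclc had 888 CPM in Lcn2-ko, from 7 of 26 cells, and 85.2 CPM in wt, from 5 of 19 cells (3.38, 2.50 to 4.42), while Fscn1-low members had 140 and 111 CPM (0.33, -0.30 to 0.95). The share of members with a Gclc UMI differed by 3.64 points, with an interval of -8.42 to 16.2. Epsti1, an interferon-induced gene, likewise had 1158 CPM in Lcn2-ko and 457 CPM in wt among Fscn1-high members (1.34, 0.91 to 1.79), and 122 and 95 CPM among Fscn1-low members. Npr1, a natriuretic peptide receptor, had 513 CPM in Lcn2-ko and 225 CPM in wt among Fscn1-high members, with 28 of 81 Lcn2-ko UMIs in 1 cell, and 2 UMIs in Lcn2-ko against 16 in wt among Fscn1-low members. Tnfrsf9, a costimulatory receptor, showed the reverse: 336 CPM in Lcn2-ko and 426 CPM in wt among Fscn1-high members, but 466 and 123 CPM among Fscn1-low members (1.92, 1.47 to 2.38). T-gated cells had a Tnfrsf9 UMI in 73.5% of Lcn2-ko and 66.1% of wt cells, and how far free T cell RNA adds here was not tested. Mmp13, a collagenase, had 27 of its 39 Lcn2-ko UMIs in 1 cell.

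**Figure D4:**
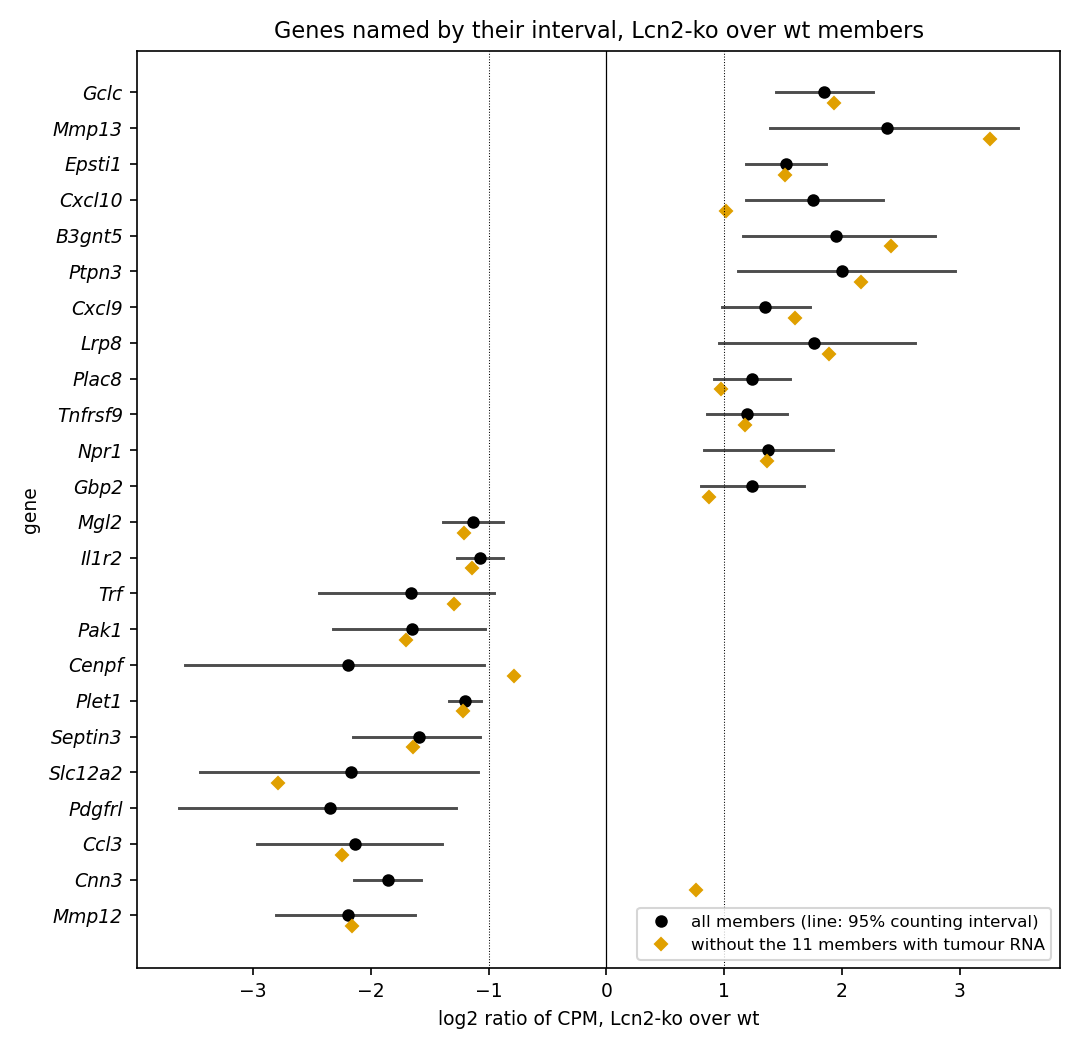
Log2 ratio of CPM, Lcn2-ko over wt, of the 12 genes with the highest lower bound and the 12 with the lowest upper bound of the 95% counting interval (dots and lines, all 166 members; diamonds, without the 11 tumour-RNA members; dotted lines at 2-fold). Cnn3 changes sign without the tumour-RNA members and Cenpf falls short of 2-fold; Pdgfrl has no diamond because wt then held no UMI of it.

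On the lower side, besides Ccl3, Plet1, Il1r2 and Mgl2, stood Mmp12, Cnn3, Pdgfrl, Slc12a2, Septin3, Cenpf, Pak1 and Trf. Mmp12, a metalloelastase, had 58.2 CPM in Lcn2-ko members and 267 CPM in wt members (-2.19, -2.81 to -1.63), in 14 Lcn2-ko and 31 wt cells, and it was also lower in gated cDC1 (-1.71, -2.41 to -1.06) and gated cDC2 (-0.60, -0.84 to -0.35) of Lcn2-ko. Pak1, a kinase of cell motility, had 52.2 and 164 CPM (-1.65, -2.32 to -1.03), with no cell holding more than 6 UMIs. Trf, transferrin, had 40.2 CPM in Lcn2-ko and 127 CPM in wt. Septin3, a cytoskeletal GTPase, had 74.3 and 224 CPM, with no UMI in Fscn1-high members. Slc12a2, an ion transporter, kept only 1 UMI in Lcn2-ko and 10 in wt without the tumour-RNA members. Calponin Cnn3, at 247 CPM in Lcn2-ko and 894 CPM in wt, had 283 of 654 wt UMIs in 1 cell and a log2 ratio of 0.76 without the tumour-RNA members. Pdgfrl had 46 of 60 wt UMIs in 1 cell, and Cenpf, a kinetochore gene, 26 of 47.

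**Figure D5:**
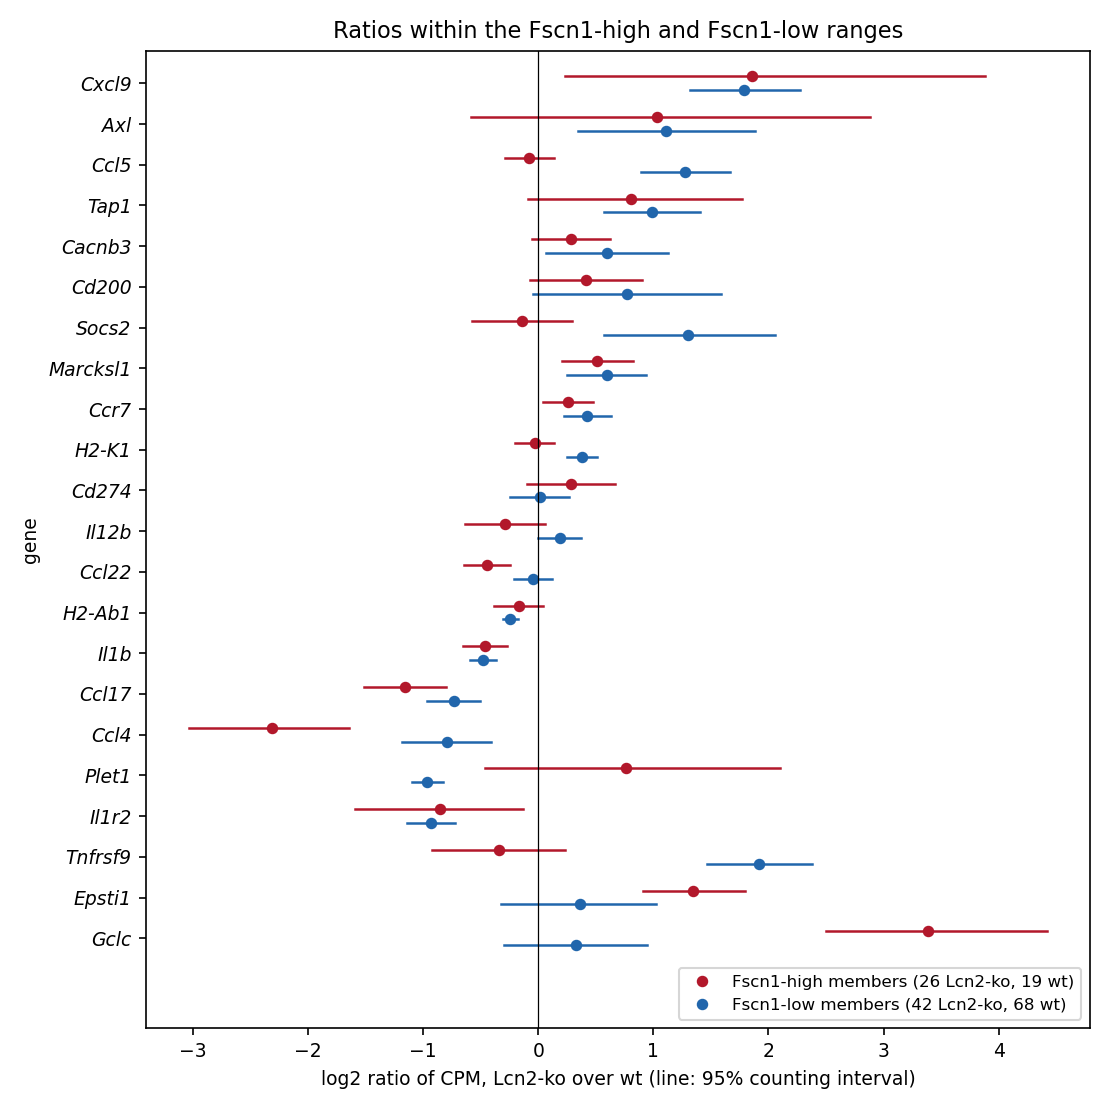
Log2 ratio of CPM, Lcn2-ko over wt, of 22 genes within Fscn1-high members (26 Lcn2-ko, 19 wt cells; red) and Fscn1-low members (42 Lcn2-ko, 68 wt cells; blue), with 95% counting intervals. Ccl17, Ccl4, Il1b and Il1r2 are below 0 in both ranges and Cxcl9 and Marcksl1 above 0 in both, whereas Gclc, Epsti1, Tnfrsf9, Socs2 and Ccl5 stand clear of 0 in 1 range only; the differences between ranges were not tested.

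Transcripts of sex-linked genes show whether members could come from the male marrow or the female host. Y-linked UMIs and no Xist UMI were found in 48 of 73 Lcn2-ko members (65.8%, 53.7 to 76.5) and 71 of 93 wt members (76.3%, 66.4 to 84.5), a difference of -10.6 points (-24.2 to 3.15). Xist UMIs without Y-linked ones were found in 1 of 73 Lcn2-ko members and in 0 of 93 wt members, which allows up to 3.23% of cells with such UMIs but sets no limit on host cells. A further 2 Lcn2-ko and 3 wt members had UMIs of both kinds. T-gated cells had Xist UMIs alone in 449 of 2834 Lcn2-ko cells (15.8%) and 328 of 2528 wt cells (13.0%), and gated cDC1 in 0 of 160 Lcn2-ko and 0 of 333 wt cells. Members with both kinds or neither kind of UMI, the second being 22 in Lcn2-ko and 19 in wt, cannot be placed.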

How the data were processed

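Live CD45+ cells were captured with the BD Rhapsody microwell system and whole-transcriptome libraries were made from transcript ends, per the labels' protocols. The deposited values are counts, UMIs per gene and cell barcode for 31253 genes with no normalisation (40959725 UMIs over 7788 barcodes in the library labelled Lcn2-ko, 42069099 over 7974 in wt). Cell Ranger and mm10 were used, per the submitters' processing notes; versions are not given in the sources used here.

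Cells under 200 detected genes or over 20% mitochondrial UMIs were removed, others kept (7547 Lcn2-ko, 7712 wt). Members' UMIs were summed per library and scaled to CPM. Intervals at 95% are exact Clopper-Pearson for shares, exact conditional binomial for ratios, and Newcombe for share differences. Those of ratios treat every UMI as independent, so they leave out variation between cells. The amplified reads behind UMIs and the animals behind cells add further error that the intervals do not cover. Where 1 sum was 0, 0.5 UMI was added to both. No test was possible with 1 library per label. Genes were named by rule: every gene of the fixed lists by its role, the 12 genes at either end by interval bound, and the 20 or 10 most different from other cells with at least 100 CPM, leaving out Lcn2, sex-linked, mitochondrial, ribosomal, immunoglobulin, T cell receptor, haemoglobin and predicted genes. Members, ranges and lists were chosen with earlier results of these data known. The interval code was tested on simulated sums without variation between cells. Alternatives changed the gate, cell filters, scaling (edgeR 4.0.16 TMM), depth (each member thinned to 3900 UMIs) and abundance limits. Gene positions come from the GENCODE annotation of mm10. Python 3.11.15, numpy 2.4.6, scipy 1.17.1 and pandas 2.3.3 were used.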

Additional observations from a re-analysis of the deposited data

How the results depend on the processing

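No paired analysis was possible because each genotype label had 1 library, and no replicate could be left out. Under the alternatives run, the differences in shares of members and in sex-linked transcripts moved by less than their counting intervals. The gate without Ccr7 also required at least 4 UMIs of Fscn1 and Ccl22. Dropping Ccr7 alone, which would admit 31 further Lcn2-ko and 75 further wt cells, was not run. In a gate without Ccl22 (37 Lcn2-ko and 35 wt cells) the share of kept cells differed by 0.0364 points, and the share of gated dendritic cells by 3.83 points (0.115 to 7.89), an interval that excludes 0. Alternatives that leave out tumour-RNA members, split members by Fscn1, or weight the Fscn1 ranges equally were chosen after seeing the data. The count of 43 genes at least 2-fold higher in Lcn2-ko became 25 with a stricter gate, 28 without other-lineage members, 20 in Fscn1-high members, 77 with the mean of per-cell CPM, 27 with thinned cells, 28 with equal Fscn1-range weights, 1665 with no abundance limit and 14 at 100 CPM and 100 UMIs. The count of 59 lower became 91 in the gate without Ccl22, 17 in Fscn1-high members, 35 in Fscn1-low members, 34 with equal weights, 2227 with no abundance limit and 23 at 100 CPM and 100 UMIs. At 100 CPM, 190 genes were higher and 94 lower than in gated cDC1, and 122 higher and 61 lower than in gated cDC2; fewer genes are tested under that limit.

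Of the values of named genes under an alternative, 680 stayed within counting error, 172 moved and 21 changed sign, the sign being followed only for genes at least 2-fold apart; of list medians, 374 stayed and 58 moved. Cnn3 changed sign to 0.57 with the stricter gate, 1.29 without the top 5% of cells by UMIs, 1.17 without other-lineage members, 0.76 without tumour-RNA members, 0.85 in Fscn1-high members, 0.74 in Fscn1-low members and 0.77 with equal weights. Hmox1, a haem-degrading enzyme with 32 UMIs in Lcn2-ko and 16 in wt members, changed sign to -1.13 with the stricter gate, -1.18 without Ccl22 in the gate, -0.32 without Ccr7 in the gate and -2.56 in Fscn1-high members. Mmp13 became -1.4 without Ccl22 and -0.98 without Ccr7 in the gate. Cxcl10 became -0.0904 without Ccr7 in the gate and -0.10 without other-lineage members. Cenpf became 0.68 without the top 5% by UMIs and 0.52 without other-lineage members. In Fscn1-high members Tnfrsf9 became -0.34, Gbp2 -0.48 and Plet1 0.77, and in Fscn1-low members Npr1 became -2.17. Of genes closer than 2-fold, Fscn1 became -0.39 with equal weights, Ccl22 became 0.07 without other-lineage members, and Il12b had the same direction in 8 of 15 settings, the lowest being -0.35 with the mean of per-cell CPM. The cause was not tested. Pdgfrl has no value where a library held none. Other scalings shifted all ratios by -0.05 (median of ratios) and -0.07 (TMM). Depth limits genes under about 50 UMIs, and a count of 0 allows up to 6.03 CPM in Lcn2-ko members and 4.10 CPM in wt members.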

Other observations

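Gene groups outside the dendritic programme were also compared between the libraries' members, and several had no more genes past 1.5-fold than all genes did. Of 16 glycolysis and hypoxia genes measured, 0 were at least 1.5-fold higher in Lcn2-ko members and 2 lower (11.2% of all genes were lower), with a median log2 ratio of -0.20. Hk2, a hexokinase, had 153 CPM in Lcn2-ko members and 278 CPM in wt members (-0.86, -1.26 to -0.48), and Pfkp, a phosphofructokinase, 145 and 254 CPM (-0.81, -1.23 to -0.41). The summed ratio of the list was -0.60 (-0.78 to -0.42) among Fscn1-high and -0.16 (-0.25 to -0.07) among Fscn1-low members. Of 18 heat shock and dissociation genes, 2 were higher and 1 lower, shares below those of all genes, with a median of -0.04. The 2 were Hspa1a (285 CPM in Lcn2-ko, 187 CPM in wt) and Hspa1b (289 and 153 CPM), near-identical copies whose reads can be split. Of the 142 Lcn2-ko UMIs of Hspa1a, 64 were in 1 cell. In gated cDC1 Hspa1a ran the other way, at 1026 CPM in Lcn2-ko and 2232 CPM in wt.

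Cell cycle genes showed how much a few cells weigh. Over all members 0 of 19 were at least 1.5-fold higher and 5 lower, and the summed ratio was -0.02 (-0.12 to 0.07). Without tumour-RNA members it was 0.16, and it was -0.57 (-0.81 to -0.32) among Fscn1-high but 0.44 (0.31 to 0.57) among Fscn1-low members. Birc5, a mitotic survival gene, had 165 CPM in Lcn2-ko and 111 CPM in wt. Cholesterol and lipid genes had 0 of 9 past 1.5-fold in either direction. Fabp5, a fatty acid carrier that was high in members over other cells, had 1962 CPM in Lcn2-ko members and 1693 CPM in wt members (0.21, 0.09 to 0.34), with log2 ratios of -0.56 among Fscn1-high and 1.08 among Fscn1-low members. Of 10 iron-handling genes measured, 3 were higher and 0 lower, with a median of 0.29, or -0.07 without Ccr7 in the gate. Lcn2 itself was 1 of the 3, with most of its UMIs in 1 cell. Transferrin, Trf, named above as lower in Lcn2-ko (-1.66, -2.44 to -0.95), is not in that list. The sum of the list was lower (-0.23, -0.29 to -0.16) through Fth1, the ferritin heavy chain, at 4714 CPM in Lcn2-ko and 5973 CPM in wt. Of 4 pattern recognition genes measured, 0 were higher and 2 lower, and the Cd14 co-receptor had 157 and 235 CPM. Of 10 general dendritic cell genes, 1 was higher and 2 lower, with a median of 0.14.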
